A study of Homo sapiens with 6 samples.

Results

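P2RY14 encodes a G protein-coupled receptor of the P2Y family, and its gene lies on chromosome band 3q25 beside other receptors of that family. Probes for 6 genes of this cluster were examined in REH cells after knockdown of the ETV6/RUNX1 fusion: P2RY14, P2RY13, P2RY12, P2RY1, GPR171 and MED12L. Members were all catalogue probes of the array whose RefSeq accession named one of these genes. This gave 8 probes, 3 of them for P2RY1 and 1 for each other gene, out of 25728 catalogue probes with a symbol for 19721 genes. P2RY14 was chosen by its knockdown minus control difference on these same arrays, and the other genes for lying near it, so the members' values are a description and carry no test.

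REH is an established human B-cell precursor leukemia line with an ETV6/RUNX1 translocation, and according to the study it has lost the other ETV6 allele. Expression was measured on 6 one-color arrays, 3 from cells with an shRNA against the fusion (knockdown) and 3 from cells with an shRNA labelled non-targeting (control). Per the methods, both groups received a lentiviral ETV6 hairpin with a GFP marker, and the control hairpin was one that did not hit the fusion transcript. The results are therefore those of 1 cell line and 1 active hairpin, described as biological triplicates.

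Receptors of the P2Y family respond to nucleotides outside the cell. P2RY14 binds UDP-glucose and other UDP-sugars and signals through Gi proteins, which lower cyclic AMP. P2RY12 and P2RY13 are Gi-coupled receptors for ADP, known respectively from platelets and microglia and from myeloid cells, whereas P2RY1 is an ADP receptor that couples to Gq and raises calcium. GPR171 is a receptor found on lymphocytes, and MED12L is a paralogue of MED12, a subunit of the Mediator kinase module. In the RefSeq gene table, GPR171, P2RY14, P2RY13 and P2RY12 all lie within the span of MED12L, and P2RY1 lies further along the same band.

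The DNA-binding part of the fusion comes from RUNX1, a factor known to recognise the letters TGTGGT or TGCGGT. For this reason the 250 bases before each annotated start of the member genes were searched for both motifs on both strands (RefSeq, GRCh38.p14). Among 8 such promoters of the 6 genes, 2 held TGTGGT, namely 1 of the 2 P2RY14 promoters and that of GPR171, and none held TGCGGT. Among all 35116 promoters of this length, 10.98% held TGTGGT on either strand. The P2RY14 promoters are shown because P2RY14 is the member with measurable signal, and that of GPR171 because it held 2 matches. Sequences are written 5′ to 3′ on the gene's strand. Capitals mark ACCACA, which reads TGTGGT on the other strand.
P2RY14, first start, chr3:151278543-151278792, minus strand: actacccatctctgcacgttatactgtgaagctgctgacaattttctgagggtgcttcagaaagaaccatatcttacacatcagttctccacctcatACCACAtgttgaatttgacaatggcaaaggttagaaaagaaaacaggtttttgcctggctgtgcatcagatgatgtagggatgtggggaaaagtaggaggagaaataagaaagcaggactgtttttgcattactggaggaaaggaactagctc
P2RY14, other start, chr3:151248992-151249241, minus strand: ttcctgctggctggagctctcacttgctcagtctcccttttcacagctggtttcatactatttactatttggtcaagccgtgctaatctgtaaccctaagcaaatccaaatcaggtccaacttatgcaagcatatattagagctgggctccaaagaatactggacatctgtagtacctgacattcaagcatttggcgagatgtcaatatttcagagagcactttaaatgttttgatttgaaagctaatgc
GPR171, chr3:151203217-151203466, minus strand: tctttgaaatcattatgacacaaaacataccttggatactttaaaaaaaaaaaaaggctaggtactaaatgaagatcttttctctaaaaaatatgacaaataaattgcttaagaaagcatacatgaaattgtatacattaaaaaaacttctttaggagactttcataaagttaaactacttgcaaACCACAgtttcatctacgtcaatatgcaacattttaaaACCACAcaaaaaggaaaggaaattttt
The match in P2RY14 began 153 bases before the start, and those in GPR171 began 65 and 27 bases before it. A match describes the letters only, since binding was not measured on these arrays. Which P2RY14 start the REH transcript uses cannot be read from the array, and the probe lay on NM_014879.

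First, signal over background was determined for each member. P2RY14 was the member with signal well above background on all 6 arrays by the scanner software's mark. P2RY13 had this mark on 1 array, knockdown replicate 3, and GPR171 on 1 array, control replicate 2, whereas P2RY12, MED12L and the 3 probes of P2RY1 had it on none. For the comparisons, probes were kept if 2 or more of 3 arrays in either group lay over 1.1 times the normalized 0.95 quantile of the negative controls. Of the 8 probes, only that of P2RY14 was retained. The plot of spot intensities by array shows the members against the negative control spots.

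**Figure D1:**
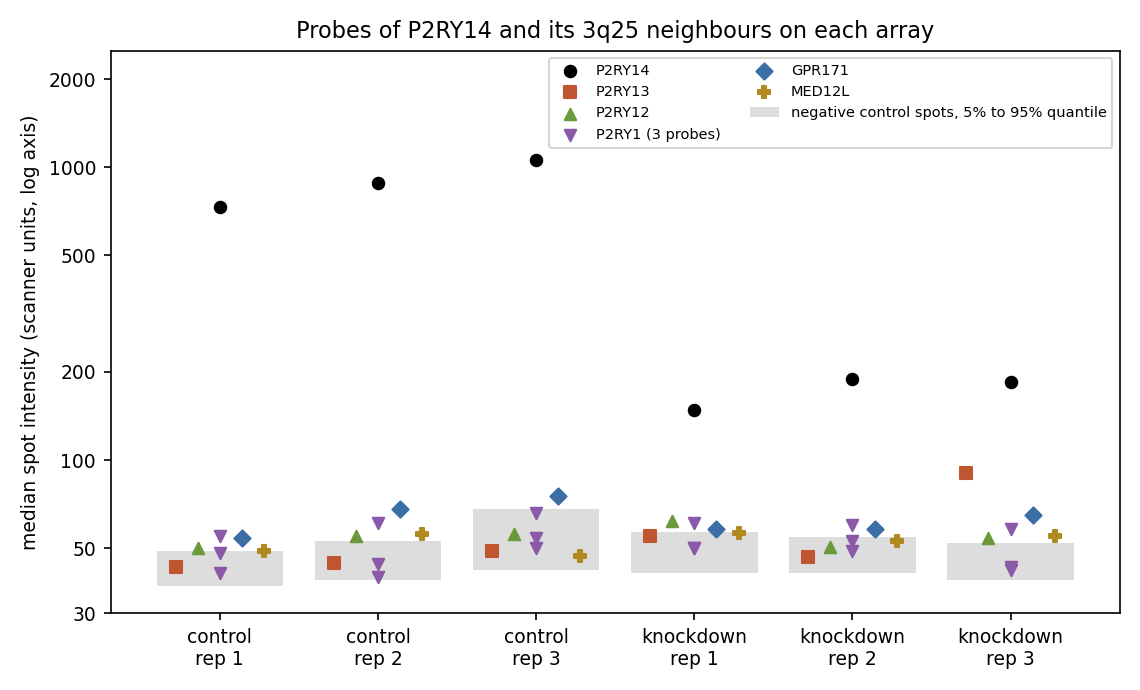
Median spot intensity (scanner units, log axis) of the 8 member probes on each of the 6 arrays, where points are single arrays and grey bars run from the 5% to the 95% quantile of 308 negative control spots. P2RY14 lay at 730 to 1060.5 on control arrays and at 148.5 to 189 on knockdown arrays, and the other 7 probes lay at 40 to 75.5 except for P2RY13 on knockdown replicate 3, at 90.5.

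P2RY14 (probe A_24_P165864) was bright in control cells and dim after knockdown. Its median spot intensity was 730, 881 and 1060.5 on control replicates 1, 2 and 3. On knockdown replicates 1, 2 and 3 it was 148.5, 189 and 184.5. Every control array was at least 3.86 times as bright as any knockdown array, and the groups did not overlap, as was the case in this direction for 9.85% of all 27490 retained probes.

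Even after knockdown the probe remained above background. Negative control spots had medians of 42.25 to 48 on the 6 arrays, and the P2RY14 spot was at or above 98.4% to 100% of them on each array. After variance stabilization, which puts intensities on a generalized log2 scale that flattens dim values, P2RY14 measured 9.56, 9.76 and 9.94 in control and 6.86, 7.51 and 7.50 in knockdown. The means were 9.75 ± 0.19 and 7.29 ± 0.37 (SD, n = 3), a difference of -2.46 or 5.50-fold. The lowest control array exceeded the highest knockdown array by 2.05, against ranges of 0.38 and 0.65 within the groups.

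All 3 replicate numbers showed the decrease, at -2.69, -2.25 and -2.43 for replicates 1, 2 and 3. Knockdown replicate 1 was the lowest of the knockdown arrays. With the scanner software's background-subtracted signal, P2RY14 was at 741, 906 and 1088 in control and at 106, 149 and 149 in knockdown, so that 14.7% of the control signal was left. Within replicate numbers, 14.2%, 16.4% and 13.7% was left. The normalized difference is smaller in size than that of the background-subtracted signal. These measures differ in their scale and in whether background was subtracted, and the source of the gap was not tested.

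Among 21598 retained catalogue probes, P2RY14 ranked 7 by the size of its decrease. Over all 27490 retained probes, 0.0255% were lower by at least as much, and nothing is read from this share because the decrease chose the gene. Control replicates 1 and 2 lay in the first row of the slide and the other 4 arrays in the second. Within the second row alone, the 3 knockdown arrays differed from control replicate 3 by -2.65. In bulk RNA, fewer cells that express P2RY14 and less P2RY14 RNA per cell cannot be told apart.

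The ADP receptors of the cluster were at or near background in both groups. P2RY12 had intensities of 50, 55 and 56 in control and 62, 50.5 and 54 in knockdown, at or above 84.7% to 97.4% of the negative control spots. P2RY13 had 43, 44.5 and 49 in control and 55, 46.5 and 90.5 in knockdown. The value of 90.5, on knockdown replicate 3, was at or above 99.4% of the negative control spots of its array, and the other 2 knockdown arrays did not share it.

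For P2RY1, the 3 probes ranged from 40 to 66 in control and from 42 to 61 in knockdown, and none of them was well above background on any array. MED12L, whose gene surrounds P2RY14, had 49, 56 and 47 in control and 56.5, 53 and 55 in knockdown. A dim probe sets only an upper bound on its transcript. Thus no direction is given for P2RY12, P2RY1 or MED12L.

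GPR171, the direct neighbour of P2RY14 and the member with 2 promoter matches, was at the edge of detection. Its intensities were 54, 68 and 75.5 in control and 58, 58 and 65 in knockdown, so the groups overlapped. They were at or above 95.8% to 99.0% of the negative control spots. It passed the filter when negative control spots marked as outliers were left out of the threshold, and its normalized difference was then -0.19, less than the SD of 0.24 within control. With spike-in scaling, which sets arrays by added control transcripts, the sign turned, at 0.18, and with the processed signal the difference was -1.10. A difference between the groups was not detectable for GPR171 at this signal.

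Next, the targeted transcript and the identity of the cells were examined. ETV6, the gene the hairpin targets, was above background with 1 of its 2 probes (A_33_P3356325), at 7.92, 8.05 and 8.37 in control and 7.50, 7.46 and 7.29 in knockdown on the generalized log2 scale. The difference was -0.70 (SE 0.14, n = 3) with a limma adjusted p of 0.0513, and the groups did not overlap. It was called under 1 of 17 alternatives, the intensity trend with a robust prior (adjusted p = 0.0436), and was at -0.34 (adjusted p = 0.299) with spike-in scaling. Where this probe lies relative to the fused portion is not given in the sources used here, so it is a weak check of the knockdown. The study itself reports silencing of the fusion, with a western blot and RT-qPCR of its protein and transcript. Across the whole array, limma called 478 of 27490 retained probes (1.74%) at an adjusted p under 0.05, 352 lower (1.28%) and 126 higher (0.458%), and 1038 with the replicate number as a block. Spike-in scaling moved the median of all probes from -0.0015 to 0.36 and called 150 lower and 900 higher, so that directions in the gene lists below are relative to the other probes of the array. Arrays correlated with each other at 0.986 to 0.996 across probes.

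The cells carried the markers of their label. Of 13 B-cell precursor genes, 12 were well above background on all 6 arrays, among them PAX5 and IGLL1. None of their 18 retained probes was called, against 1.74% of all retained probes. Of these 18, 15 were higher and 3 lower, with a median difference of 0.22. With the replicate number as a block, CD22 (0.67, limma adjusted p = 0.0264), CD79B (0.55, adjusted p = 0.0367) and both IGLL1 probes (0.53 and 0.68, adjusted p = 0.0379 and 0.0132) were called higher, genes named here after their values were seen. CD22 was also called under 4 further alternatives, among them spike-in scaling and leaving out control replicate 1. Some markers of other cell types moved with the groups. Among 6 myeloid probes 1 of the 4 retained was called, against 1.74% of all retained probes. This was MPO, a granule enzyme, which fell by 2.02 (limma adjusted p = 0.0011). The summed background-subtracted signal of the 6 myeloid probes was 18216 to 18929 in control and 3793 to 7419 in knockdown. That sum was nearly all MPO: without it, the other 5 myeloid probes summed to 419 to 499.6 in control and 363 to 581 in knockdown. For megakaryocytes and platelets, where P2RY12 and P2RY1 are also known, the summed signal of 9 marker probes was 296 to 357 in control and 220 to 294 in knockdown. The summed signal of 8 T and NK cell probes was 269 to 334 in control and 346 to 541 in knockdown. None of 4 retained probes was called, against 1.74% of all retained probes. In this sum NKG7 was at 148 to 194 in control and 210 to 407 in knockdown. CD2 was at 137 on knockdown replicate 2 and at 18 and 21 on knockdown replicates 1 and 3. With spike-in scaling, CD2 (1.05, limma adjusted p = 0.0018) and NKG7 (0.98, adjusted p = 0.0048) were called higher. The summed signal of 6 erythroid probes overlapped between the groups at 409 to 482 and 408 to 508. Well above background on no array were 2 of 6 myeloid, 3 of 8 megakaryocyte and platelet, 4 of 7 T and NK cell and 1 of 4 erythroid genes. The part of these shifts in the values of P2RY14 was not tested.

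Next, the neighbourhood of P2RY14 on 3q25 was read gene by gene, to see which other transcripts there differed. The RefSeq table lists 82 genes from TM4SF1, at one end, to P2RY1, at the other, and 27 of them code for proteins. Besides P2RY14, 20 probes of 14 genes were retained, of which 14 were lower and 6 higher (5 and 15 with spike-in scaling), with a median difference of -0.15 against -0.0015 over all retained probes. Of these 20, 2 were called, against 1.74% of all retained probes, and both were for TM4SF1, a tetraspanin-like surface protein. TM4SF1 was taken as the end of the list with its earlier results known, and its probes passed the filter through control, so its values are a description and nothing about the list is read from them.

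Both probes of TM4SF1 had values near background in knockdown, so that the sizes of their differences are uncertain. As measured, the differences were -2.76 and -4.71 on the generalized log2 scale. On the first probe, TM4SF1 measured 8.26, 8.38 and 8.27 in control and 6.24, 5.20 and 5.19 in knockdown, where it was well above background on 1 of 3 arrays, and its difference ran from -4.71 to -1.98 over 17 alternatives. The second probe was well above background on all 3 knockdown arrays and passed the filter threshold on 1 of them. TM4SF1 and P2RY14 are separated by 16 other protein-coding genes.

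None of the retained genes that lie between TM4SF1 and P2RY14 passed the test with the main settings. COMMD2 (-0.15), PFN2 (-0.20), LOC646903 (-0.43), TSC22D2 (-0.09), SERP1 (-0.42), EIF2A (-0.13 and -0.26), SIAH2 (0.10) and CLRN1-AS1 (0.03) had limma adjusted p-values from 0.101 to 0.957, and RNF13, a ubiquitin ligase, had 0.27 and 0.25. The 4 probes of SELENOT, a selenoprotein of the endoplasmic reticulum, lay between -0.20 and 0.19. Under 1 of 17 alternatives each, LOC646903 was called with the processed signal (-0.96, adjusted p = 0.0447) and SERP1 with normexp and quantile normalization (-0.43, adjusted p = 0.0485). The groups did not overlap for 7 of these 15 probes, 4 lower and 3 higher, against 18.9% of all retained probes.

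Beyond the cluster on the side of P2RY1, 3 further genes were retained and none was called, against 1.74% of all retained probes. IGSF10, the next protein-coding gene after P2RY12, was at -0.51 (SE 0.19, limma adjusted p = 0.318), but at -0.73 (adjusted p = 0.0328) when knockdown replicate 1 was left out. SUCNR1, a receptor for succinate, was at 0.02 and MBNL1, a splicing regulator, at -0.18. Most of the genes inside the span of MED12L were too dim to compare, as the plot of differences along the band shows.

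**Figure D2:**
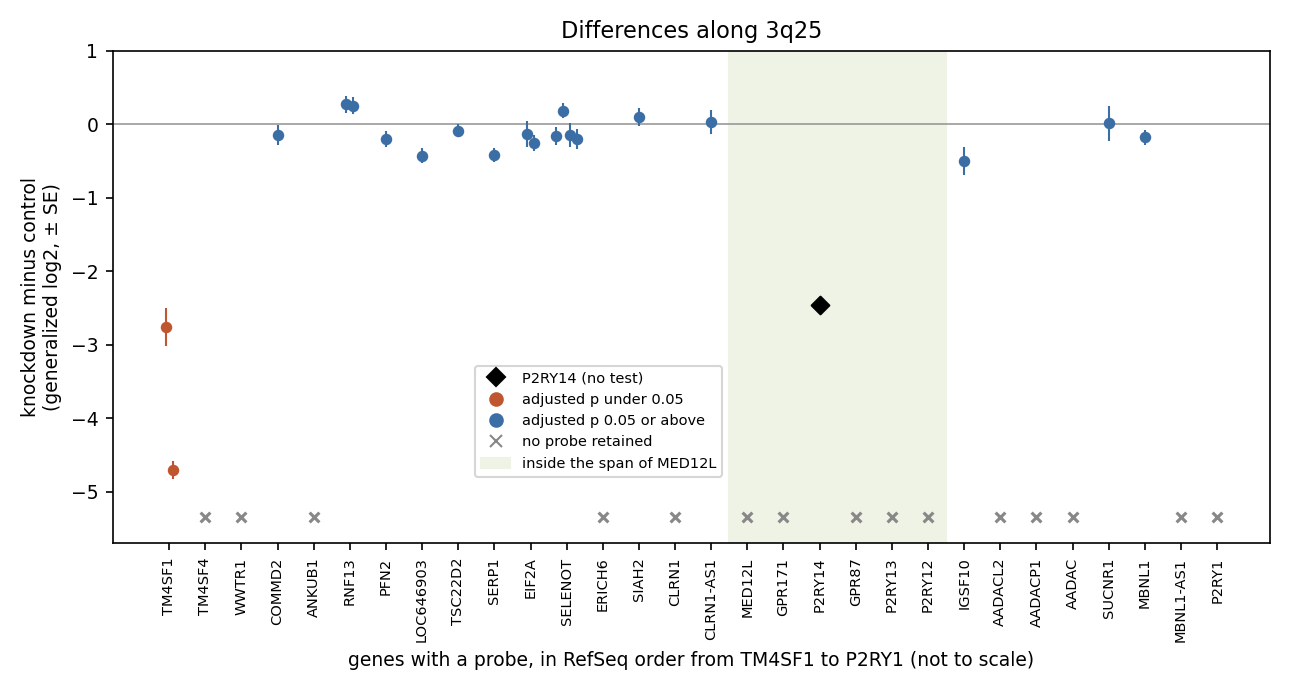
Knockdown minus control (generalized log2, ± SE of limma, n = 3 per group) for each retained probe of the genes from TM4SF1 to P2RY1, in gene order and not to scale, where crosses at the bottom are genes with no retained probe and the shaded band is the span of MED12L. Apart from P2RY14 at -2.46, which is drawn without error, the 2 TM4SF1 probes at -2.76 and -4.71 are the called ones, and the other 18 probes lie between -0.51 and 0.27.

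Other receptors of the P2Y family and related receptors were then examined from a list of 16 genes. Of 16 probes, 6 were retained, those of P2RY8, LPAR4, LPAR6, F2R, PTAFR and SUCNR1, and none was called, against 1.74% of all retained probes. Their median difference was -0.04 and 3 were lower, 1 with spike-in scaling. No probe of P2RY2, P2RY4, P2RY6, P2RY10 or P2RY11 was retained, so these P2Y receptors were not compared. LPAR6, a lysophosphatidic acid receptor, had the largest difference: it measured 11.03, 10.66 and 10.66 in control and 10.53, 9.68 and 9.81 in knockdown. The difference of -0.78 (SE 0.22) had a limma adjusted p of 0.183, of 0.0217 with the replicate number as a block and of 0.0166 without knockdown replicate 1. F2R, the thrombin receptor, was at -0.12 and PTAFR, the receptor for platelet-activating factor, at -0.09.

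The P2X channels, which open on ATP, showed 1 increase. Of 9 probes 8 were retained, 7 with a positive and 1 with a negative difference, and 1 probe of P2RX5 was called, against 1.74% of all retained probes. On this probe P2RX5 rose from 8.24, 8.15 and 7.90 in control to 9.29, 9.21 and 9.09 in knockdown, with no overlap, as for 9% of all retained probes in this direction. The difference was 1.102 (SE 0.12, limma adjusted p = 0.0042) and was called under each of 17 alternatives. The other P2RX5 probe was at 0.49 (adjusted p = 0.145) and was not called. The 4 adenosine receptors, which respond to the nucleoside left once phosphates are removed, had 5 probes and none was retained.

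Gi proteins and their regulators carry the signal of P2RY14 inside the cell. Of 44 probes for 35 such genes, 35 were retained and 3 were called, against 1.74% of all retained probes, and their median difference was 0.05. GNAZ, a Gi-family alpha subunit, rose from 7.80, 7.49 and 7.47 in control to 9.73, 9.10 and 9.43 in knockdown. The difference was 1.83 (SE 0.17, limma adjusted p = 0.002), and it was called under each of 17 alternatives. The alpha subunits GNAI1 (0.31), GNAI2 (0.02) and GNAI3 (0.08 and -0.09), named after their values were seen, were not called. With the replicate number as a block, 1 probe of GRK6, a receptor kinase, was also called, at 0.47 (adjusted p = 0.039).

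The other calls in this list were decreases. GNG11, a gamma subunit, fell from 14.32, 14.28 and 14.28 to 12.997, 13.13 and 13.58, a difference of -1.06 (SE 0.15, limma adjusted p = 0.0148). RGS1, which speeds the shut-off of Gi signals, fell from 10.33, 9.77 and 9.76 to 9.07, 8.47 and 8.74, a difference of -1.19 (SE 0.20, adjusted p = 0.0286). The groups did not overlap for either gene, as for 9.85% of all retained probes in this direction. GNG11 and RGS1 were each called under 8 of 17 alternatives. Both lost the call without control replicate 1, 2 or 3 (adjusted p of 0.051 to 0.0786) and without knockdown replicate 2 (0.077 and 0.109), and RGS1 also without knockdown replicate 3 (0.131).

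No gene of ligand supply or breakdown passed the test. For the UDP-sugar supply, which makes, transports and uses the ligands of P2RY14, 17 of 20 probes were retained, 9 lower and 8 higher (2 and 15 with spike-in scaling), and none was called, where 1.74% of all retained probes were, so that few or no calls would be met in any list of this size. The largest differences were those of GYS1, glycogen synthase (-0.47), UGGT1, a glucosyltransferase of the endoplasmic reticulum (-0.37), and GALK1, galactokinase (0.33), with limma adjusted p-values of 0.319, 0.224 and 0.545. GYS1 had an adjusted p of 0.042 with the replicate number as a block. Among enzymes and channels of extracellular nucleotide turnover, 16 of 24 probes were retained and none was called, against the same 1.74%. ENPP4 was at -0.49 (adjusted p = 0.113, and 0.0433 with the block) and ENTPD1, which removes phosphates from ATP and ADP, at -0.47 (adjusted p = 0.192). ALPL, a phosphatase, was well above background on 2 of 3 control arrays and on no knockdown array, and it was not called (adjusted p = 0.302).

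For the kinase module of Mediator, 6 genes were listed apart from MED12L, which was too dim to compare. All 7 probes of these 6 genes were retained, 5 lower and 2 higher (0 and 7 with spike-in scaling). None was called, against 1.74% of all retained probes, so that few or no calls would be met in any list of this size. MED12, the paralogue of MED12L, was at 9.92, 9.71 and 9.64 in control and 10.12, 9.97 and 10.03 in knockdown, a difference of 0.28 (SE 0.11, limma adjusted p = 0.347). MED13L was at -0.28 and CCNC, cyclin C, at -0.22. The plot of the gene lists sets all these differences beside that of P2RY14.

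**Figure D3:**
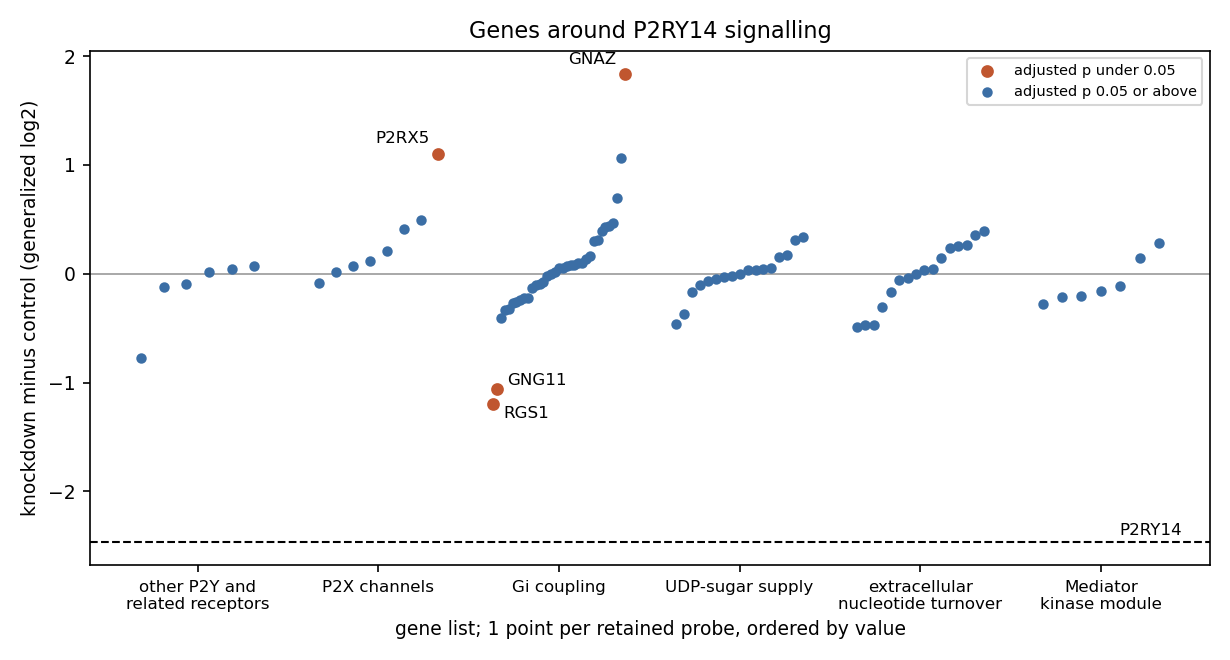
Knockdown minus control (generalized log2, n = 3 per group) for each retained probe of 6 gene lists, ordered by value within a list, with calls at a limma adjusted p under 0.05 in orange and the difference of P2RY14 as a dashed line. GNAZ at 1.83 and P2RX5 at 1.102 are the called increases, GNG11 at -1.06 and RGS1 at -1.19 the called decreases, and no list member reaches the -2.46 of P2RY14.

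Finally, the probes whose values were most like those of P2RY14 over the 6 arrays were sought by Pearson's correlation, among 1934 retained probes with a range of at least 1 log2 unit. The correlation is a description over 6 arrays in 2 groups, and it follows largely from the gap between the groups. Of these, 102 probes correlated over 0.95 and 46 under -0.95. The genes named come from the 1053 of them with a symbol. Most alike were CORO2A, an actin-binding coronin (r = 0.996), the phosphodiesterase PDE4B (0.992), the vesicular transporter SLC32A1 (0.992), the semaphorin and VEGF co-receptor NRP1 (0.992) and the phosphodiesterase PDE1A (0.991). PDE4B was at 8.44, 8.88 and 8.64 in control and 6.55, 7.02 and 7.10 in knockdown. Most opposite were the Ikaros family factor IKZF2 (r = -0.999), NKD2 (-0.996), RANBP3L (-0.995), GNAZ (-0.994) and EMP3 (-0.992).

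The choice by correlation favours genes that, like P2RY14, stand apart on knockdown replicate 1, so their values on that array are no separate result. Differences of the 5 genes most alike between the groups ran from -1.76 for PDE4B to -1.12 for CORO2A, all smaller in size than that of P2RY14. Those of the opposite genes ran from 0.92 for NKD2 to 1.83 for GNAZ, leaving out RANBP3L, which was well above background on 1 of 3 control arrays. With 3 arrays in each group, the order of the correlations within either set of 5 is not resolved.

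**Figure D4:**
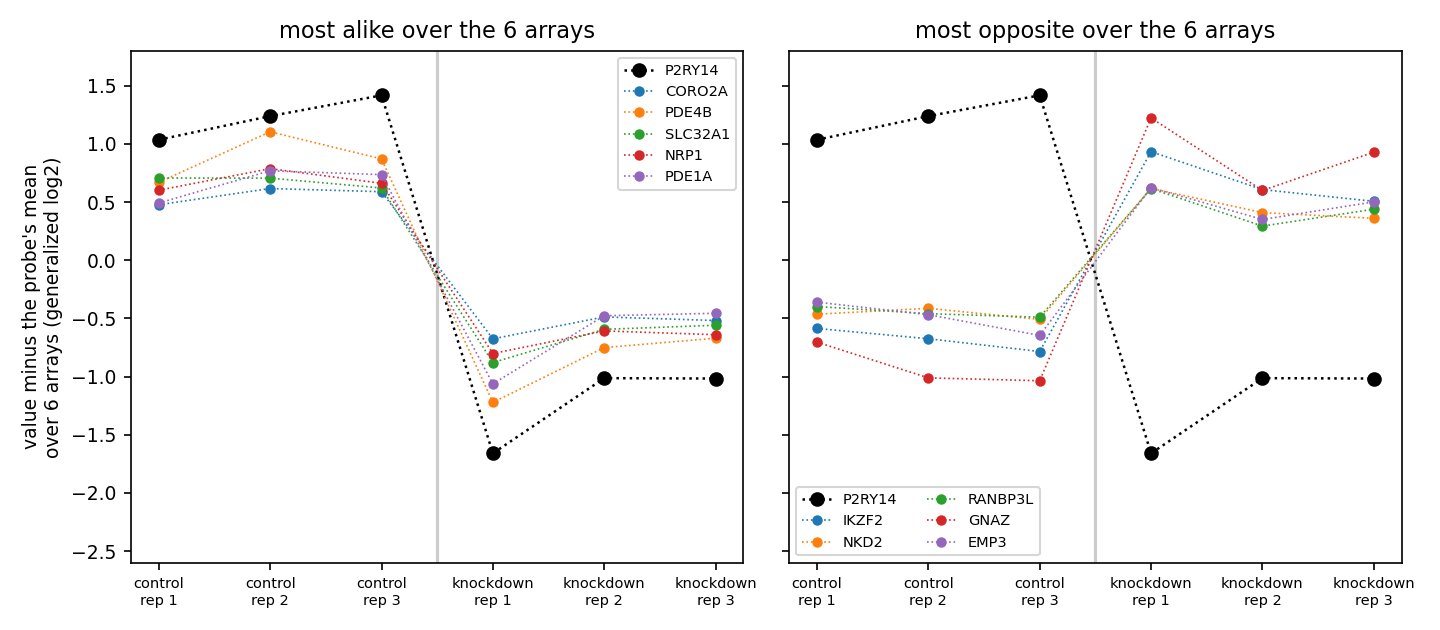
Value minus the probe's own mean over the 6 arrays (generalized log2) for P2RY14 and the 5 genes most alike (left) and most opposite (right), where points are single arrays and dotted lines only join the points of a gene. The alike genes are lowest and the opposite genes highest on knockdown replicate 1, where P2RY14 measured 6.86, a pattern the choice by correlation favours.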

How the data were processed

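Total RNA was the input of a low-input amplification and Cy3 labelling protocol for 1-color arrays. Per the file headers all 6 arrays shared 1 slide and 1 scan. The authors extracted spot intensities with Feature Extraction 10.7.1.1, and the deposited scanner files hold raw median intensities and a background-subtracted intensity, not normalized between arrays. A second deposited file holds the normalized log2 values of 27869 probes, with variance stabilization, background subtraction and a filter against negative controls named in the methods. That table holds P2RY14 of the 6 genes.

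Raw median intensities were normalized with the variance stabilization model, written anew with the 0.9 quantile of least squares kept. Outlier-marked spots were dropped, saturation was not seen, and replicate spots were averaged. Probes were kept if 2 of 3 arrays in either group lay over 1.1 times the normalized 0.95 quantile of 308 negative control spots (60% in the methods). This left 27490 probes, compared with limma 3.58.1 in R 4.3.3 (two-sided, no block as in the methods), with Benjamini-Hochberg adjustment over all of them and a threshold of 0.05. Steps were tested on simulated data. Results of some marker genes are not reported here. Values of 3 samples a group limit the precision.

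Catalogue probes were named through unversioned RefSeq accessions, and 25728 of 34134 (75.4%) had a symbol. The table's assembly is later than the build of the array design, so only gene order was taken from it. The fold given for P2RY14 is that of the group means on the generalized log2 scale, with no bound applied. Members, gene lists and the genes named were chosen with earlier results of these data known: all members, every called gene of a list or else its 3 largest differences, all retained genes from TM4SF1 to P2RY1, and the 5 most and least correlated genes. Same-numbered control and knockdown arrays deviated together from their group means (r = 0.43, 0.29 and 0.20 over probes), so the numbers were taken to pair the arrays, although control 2 with knockdown 3 (0.19) and control 3 with knockdown 2 (0.17) were nearly as high as the last pair. The blocked fit was an alternative, as were other normalizations, filters, slide rows and leaving out each array.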

Additional observations from a re-analysis of the deposited data

How the results depend on the processing

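The decrease of P2RY14 kept its direction under all 17 alternatives, from -2.73 with the processed signal scaled to its 75th percentile to -2.10 with spike-in scaling. It was smaller in size with spike-in scaling (-2.10) and with normexp background correction and quantile normalization (-2.13) than with the main settings (-2.46). Leaving out each array gave -2.57 to -2.25, the replicate block -2.46, and the deposited log2 table -2.56.

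The count of all called probes was 478. It was 1050 with spike-in scaling (150 lower, 900 higher, where the median of all probes shifted by 0.36), 224 without the filter on dim probes, 1038 with the replicate block, 227 with slide row as a term, 199 in the second slide row alone, and 191 to 553 leaving out each array, lowest without control replicate 2. The other gene lists held 6 calls, 12 with spike-in scaling, 10 with the replicate block and 4 to 8 leaving out each array. The block changed no call of the text other than those given with it. GPR171 was the 1 other member gene retained when outlier-marked negative control spots were left out, an alternative chosen after seeing the data. The cause of these shifts was not tested. The planned use of the mean spot signal was not run. Signal over background limits the 7 dim member probes: a change below their background could not be seen.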
